A study of Mus musculus with 12 samples.

Results

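The genes described here encode the factors that start and extend protein chains on the ribosome, measured in mouse bone marrow progenitors. They are the genes whose symbol begins with Eif1 to Eif6, Eef1 or Eef2, leaving out the eIF2 kinases (Eif2ak genes), the sex-linked pair Eif2s3x and Eif2s3y, and pseudogenes. This rule uses names and no measured value, and it finds 61 of the 33924 genes in the count table. It also takes in 5 Eif2c genes, whose name is an old symbol of the Argonaute genes of RNA silencing; they are not translation factors. The 4 of them that were tested are kept in the counts over all factor genes, and their levels are described on their own. Values without them are given for some counts and medians, and not everywhere that they differ.

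The data are 12 libraries of 3' tag RNA sequencing from myeloid progenitors, sorted as live bone marrow cells that lacked lineage markers and Sca1 and carried c-Kit. All mice were Mx+, and they had either Wt1+/+ (control) or Wt1fl/+ (het) alleles. No treatment is given, and the sources used here do not say how far Mx-driven deletion had gone. The labels call the old mice old chronic and the young ones young acute, with 3 libraries of each genotype at each age, so that age cannot be told apart from chronic or acute. They give no age in months and do not say whether libraries came from separate animals. All p-values therefore refer to the spread among these libraries, which may be technical.

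Initiation begins when eIF2 brings the initiator transfer RNA to the small ribosomal subunit, where eIF1, eIF1A, eIF5 and the many-subunit eIF3 help it find the start codon, while eIF2B reloads eIF2 with GTP. The cap-binding eIF4F complex recruits the mRNA, 4E binding proteins hold it back, and eIF5B joins the large subunit. In elongation, eEF1 delivers the aminoacyl transfer RNAs, eEF2 moves the ribosome along and eIF5A eases peptide bond formation. In blood stem and progenitor cells protein synthesis is known to be held at a controlled rate.

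Of the 61 genes, 56 were counted highly enough for the gene test. The other 5 were Eif2c5, Eif4e1b, Eif4ebp3 and Eif5a2, at 0 counts in all 12 libraries, and Eef1a2, the muscle and nerve form of eEF1A, at 1 count in total. Total counts ran from 645460 in young control 2 to 9645502 in old control 1, and 3 counts are worth 5.10 CPM in the former and 0.275 in the latter, where CPM are counts scaled to a common library total with TMM factors. A level at or below these values in a library cannot be told from 0 by counting alone.

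Several facts of the libraries bear on every comparison. Mitochondrial rRNA took 1.70 to 2.38% of counts in the old controls, 2.999 to 3.51% in the young hets and 4.35 to 8.22% in the young controls. Among the old hets it took 4.78% and 4.75% in replicates 1 and 3 and 1.40% in replicate 2. The Y-linked Ddx3y had 0 counts in every young het, in young control 3 and in old het 1, and was counted in the other 7 libraries. Ly6a, which encodes the Sca1 that the sort removed, had 762 counts (69.8 CPM) in old control 1 and at most 5 in every other library. The progenitor genes Kit, Cd34 and Myb summed to 1439 to 2453 CPM in all libraries. Summed B cell genes ran from 121 to 225 CPM in young controls and 70.2 to 125 in young hets, beside 24.3 to 50.1 in old controls and 33.3 to 50.6 in old hets. Old and young controls also lay apart in summed megakaryocyte genes (241 to 562 against 137 to 196 CPM) and T and NK cell genes (81.4 to 148 against 22.1 to 42.03). The T and NK sum was mostly Nkg7, with a mean of 68.5 CPM over 12 libraries, beside 4.12 for Cd3d. Cd3d had 77, 2 and 5 counts in old controls and 8, 6 and 6 in young controls, so it did not follow the sum. Cd3e had 55, 0 and 0 counts and Cd8a 126, 0 and 0 in old controls, and both had 0 in each young control. Old control 1 also had 2203 counts of Cd74 and 2045 of H2-Aa, where every other library had at most 105 and 73. Young hets and young controls lay apart in summed monocyte and dendritic cell genes (554 to 1053 against 1277 to 1661), basophil and mast cell genes (716 to 944 against 190 to 499.8) and neutrophil granule genes (17748 to 25838 against 12885 to 15988). The monocyte and dendritic sum rested mostly on F13a1 and Irf8, with means of 671 and 435 CPM over 12 libraries. Irf8 did not follow the separation of this sum. As a share of its library, Irf8 was higher in young het 1 (1322 of 3113183 counts) than in every young control. The highest of these was young control 3, at 443 of 1365425 counts. A sum need not hold for each gene of its list. Old and young hets lay apart in erythroid genes (669 to 1415 against 1684 to 2511) and, narrowly, in basophil and mast cell genes (524 to 699 against 716 to 944), besides the B cell genes. The part of these differences in the results was not tested. No gene of the marker lists was at 0 in every library. In sorted bulk cells, fewer cells of a type and less RNA per cell cannot be told apart.

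Together the factor genes took a steady share of the counts, from 1.42% in young control 2 to 1.83% in old control 1. Their summed level was 17386 ± 2106 CPM in young control, 16616 ± 536 in young het, 15497 ± 892 in old control and 16379 ± 974 in old het (SD, n = 3 each, TMM-scaled totals). The lowest library, old control 2, and the highest, young control 1, differed by 1.36 times. The order of the control groups depends on the scaling: with unscaled totals the sum was 17038 ± 1400 CPM in old control and 15528 ± 1165 in young control. Across the 12 libraries the median SD of log2 CPM was 0.48 for the tested factor genes, whose median level was 138 CPM, and 0.79 for all tested genes, at a median of 28.5 CPM. The smaller spread thus comes with a higher level, and how much of it counting accounts for was not tested.

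Because each transcript is read near its 3' end, levels of different genes are set side by side here without a length correction. The annotation of 3' ends is not given and similar genes share reads. The shares and ranks below are therefore of counts and may differ from those of the RNA. eIF3 held the largest part of the summed level, 32.1%, followed by eIF4F with its helper proteins at 16.0%, eEF1 at 15.4% and eEF2 with its kinase at 12.1%. This eIF4F group was drawn up by name from the Eif4a, Eif4b, Eif4e, Eif4g and Eif4h genes. It includes Eif4e2 and Eif4g2 (127 and 441 CPM), which are described below, so its sum is not that of eIF4F alone. Eef2 was the most counted gene, at a mean of 1936 CPM over 12 libraries. Next came Eif3a, the scaffold subunit of eIF3, at 1569 CPM, Eif5b at 1160 and Eef1a1 at 948. At the other end stood Eif2b1, a regulatory subunit of eIF2B, at 6.55 CPM and Eif3m at 7.96. Within eIF3 alone the mean level thus ran from 7.96 to 1569 CPM.

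The eIF4F group, as drawn up by name, had a sum that varied little. It was 2755 ± 67.2 CPM in young control, 2581 ± 195 in young het, 2573 ± 77.5 in old control and 2602 ± 30.1 in old het. Its highest and lowest libraries differed by 1.15 times. eIF3 summed to 5518 ± 1110 CPM in young control, 5734 ± 184 in young het, 4722 ± 66.5 in old control and 5148 ± 404 in old het, with the young controls spread from 4329 to 6527. eIF2B, the exchange factor on which stress signalling to initiation acts, summed to 659 ± 159, 768 ± 19.9, 489 ± 137 and 688 ± 99.1 CPM in the same order. The sum of Eif5b and Eif6 had its widest spread in young control, at 1939 ± 834 CPM, against 988 ± 32.2 in old control. Unscaled totals moved 11 of the 48 group means by more than 1 SD. With them the order of the control groups turned for eIF3 (4925 ± 849 CPM in young and 5187 ± 181 in old control) and for eIF4F (2470 ± 146 and 2826 ± 140). It also turned for the 4E binding genes and for the sum of Eif2s1 and Eif2s2 with the alternative factors Eif2a and Eif2d.

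**Figure D1:**
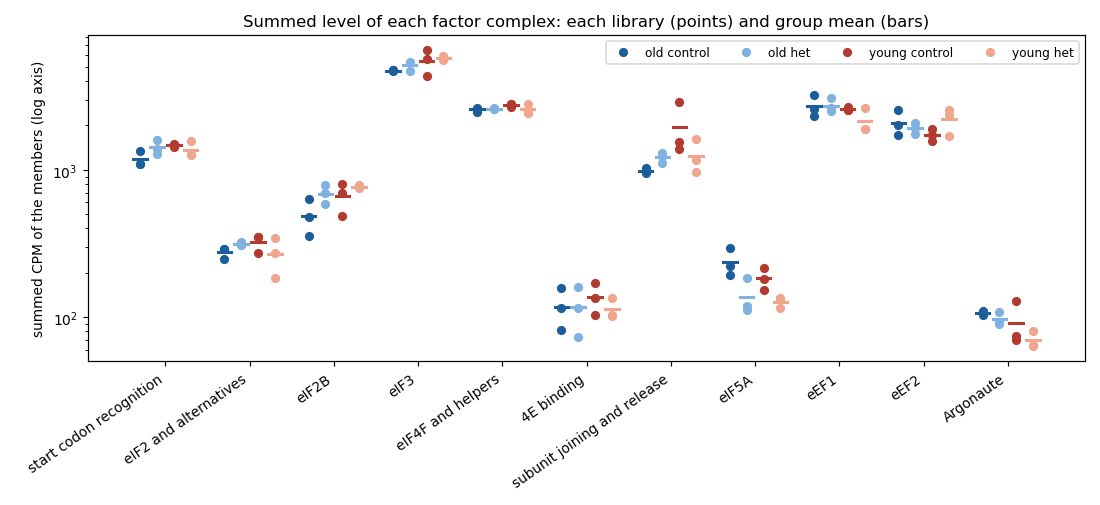
Summed level of each factor complex (CPM with TMM-scaled totals, log axis) in the 12 libraries, with 1 point per library and groups by colour. For the eIF4F group the 12 libraries lie close together, from 2441 to 2804 CPM, while the sum of Eif5b and Eif6 runs from 958 to 2898 CPM.

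The comparison of old with young controls asks how progenitors differ between these ages where Wt1 is intact. The eIF3 subunit genes Eif3l, Eif3j and Eif3b were lower in old than in young control, by 3.05, 5.91 and 2.30 times, and no other factor gene passed in either direction. By edgeR's quasi-likelihood test with Benjamini-Hochberg adjustment at 0.05, 3 of 56 factor genes (5.36%) passed, beside 6.98% of all 10604 tested genes. All 3 were lower, where 4.19% of all tested genes were lower and 2.79% higher, so the count is close to the background. The median log2 change was -0.06 over the 56 genes and 0.22 over all tested genes, with 27 factor genes above 0 and 29 below; without the Argonaute genes the median was again -0.06.

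Eif3l, a peripheral subunit that pairs with Eif3k, was at 119, 155 and 203 CPM in old controls 1 to 3 and at 375, 311 and 760 in young controls 1 to 3. Every old control was below every young control, and young control 3 stood highest. The log2 change was -1.61 (SE 0.36, edgeR adjusted p = 0.0116). Eif3b, which with Eif3a forms the core of the complex, was at 209, 298 and 357 CPM in old controls and 659, 527 and 793 in young controls. The groups did not overlap here either, and the log2 change was -1.20 (SE 0.33, edgeR adjusted p = 0.0358).

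Eif3j, a loosely bound subunit that touches the mRNA channel of the small ribosomal subunit, was at 10.7, 4.95 and 1.77 CPM in old controls, from 117, 21 and 4 counts. In young controls it was at 42.5, 40.8 and 25.2 CPM, from 56, 24 and 33 counts. The groups lay apart, at a low level throughout. The log2 change was -2.56 (SE 0.63, edgeR adjusted p = 0.0189). The mouse has near-identical Eif3j1 and Eif3j2 copies and the table a single row, so the division of reads between the copies is uncertain.

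The promoters of these 3 genes are printed because they are the factor genes that passed. The windows run from 120 bases before to 30 after the RefSeq start site in build GRCm38.p6, are on the plus strand, and come from RefSeq; the counts themselves were made on another build. Motifs were searched on both strands over all 300-base promoters of the reference: CCGGAAG, the core read by ETS factors such as GABPA, the E-box CACGTG, the cyclic AMP element TGACGTCA and the TATA motif TATAAA. The motifs and the promoters to print were chosen after the values were seen. Capitals mark a match in either direction: Eif3l at chr15:79075103-79075252 has the reverse complement of CCGGAAG, and the windows of Eif3j (RefSeq Eif3j1), at chr2:122028460-122028609, and Eif3b, at chr5:140419185-140419334, have no match.
Eif3l: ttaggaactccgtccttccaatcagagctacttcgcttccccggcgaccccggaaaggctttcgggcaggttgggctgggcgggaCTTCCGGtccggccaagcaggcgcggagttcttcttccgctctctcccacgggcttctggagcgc
Eif3j: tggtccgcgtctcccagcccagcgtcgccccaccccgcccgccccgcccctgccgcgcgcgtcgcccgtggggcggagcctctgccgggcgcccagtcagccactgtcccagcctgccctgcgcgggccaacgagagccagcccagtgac
Eif3b: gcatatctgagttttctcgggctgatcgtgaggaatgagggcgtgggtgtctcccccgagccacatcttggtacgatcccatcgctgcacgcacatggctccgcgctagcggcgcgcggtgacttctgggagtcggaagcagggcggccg

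The windows were rich in G and C, at 64.7%, 79.3% and 64.0%. Promoters were found for 47 of the 61 factor genes, 62 in all. CCGGAAG was in 20 of the 62 (32.3%; 17 genes) and in 8.86% of all 32851 promoters, and CACGTG in 14 of the 62 (22.6%; 12 genes) and in 7.15% of all. TGACGTCA was in 1, that of Eef2, or 1.61%, beside 1.79% of all. TATAAA was in 4 (6.45%), those of Eef2, Eif2s1, Eif3b and Eif3f, beside 13.6% of all, and the match of Eif3b lies outside the printed window. A match describes the letters and no bound factor, and promoters of 1 gene can overlap.

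The other eIF3 subunits were split in direction, with Eif3a, Eif3c and Eif3d below 0 like Eif3l, Eif3j and Eif3b. Of the 13 subunit genes 3 fell, none rose, and 7 in all had a log2 change above 0 against 6 below, with a median of 0.24 and a range from -2.56 to 2.28. Eif3h, a subunit next to Eif3e and Eif3f in the outer part of the complex, was at 1034, 1105 and 1044 CPM in old controls and 669, 367 and 574 in young controls. Every old control was above every young control, with a log2 change of 0.98 (SE 0.31, edgeR adjusted p = 0.0594) that did not pass. Eif3k, the partner of Eif3l, was at 242, 146 and 171 CPM in old controls and 128, 68.0 and 87.9 in young controls. Here too the groups lay apart, and the log2 change of 0.97 (SE 0.37, edgeR adjusted p = 0.118) did not pass. Eif3i had a log2 change of 0.86 (edgeR adjusted p = 0.156), Eif3c, a core subunit, one of -0.71 (edgeR adjusted p = 0.213), and Eif3a one of -0.37 (edgeR adjusted p = 0.536). Eif3m had the highest change in the complex, 2.28, but it rests on 10, 0 and 0 counts in young controls and 118, 33 and 51 in old controls, and it did not pass (edgeR adjusted p = 0.252).

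**Figure D2:**
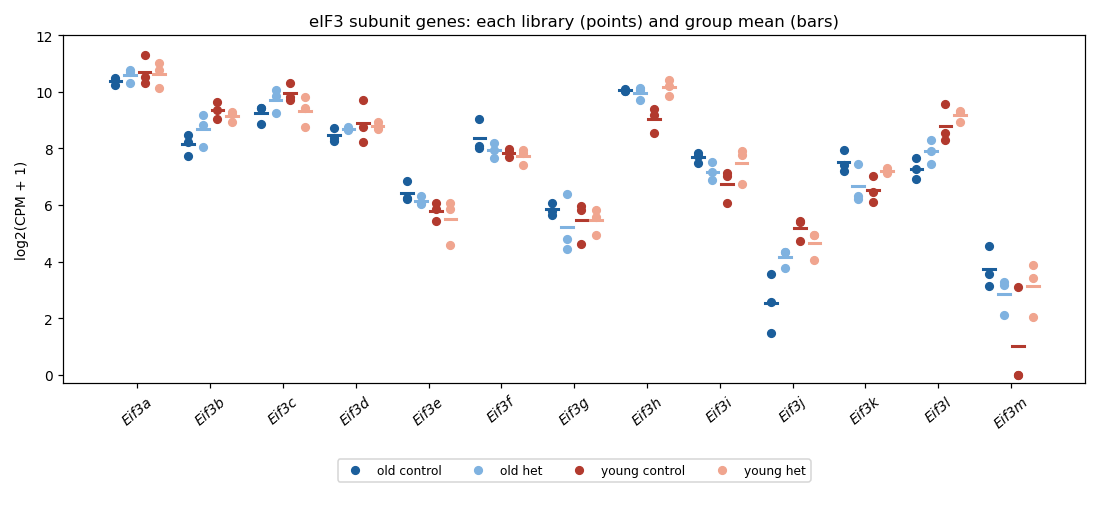
Level of each of the 13 eIF3 subunit genes, as log2(CPM + 1) on the vertical axis, with 1 point per library, groups by colour and bars at the mean of the log2 values. Eif3l, Eif3j and Eif3b are lower in every old control than in every young control, and Eif3h and Eif3k are higher.

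Over all complexes, old and young controls did not overlap in 22 of 56 factor genes (39.3%), 11 higher and 11 lower, or 10 and 11 of 52 without the Argonaute genes. Of all tested genes 31.2% lay apart, 19% higher and 12.2% lower. Without adjustment, 14 of 56 factor genes (25%) had an edgeR p under 0.05, beside 23.1% of all tested genes. By the test the factor genes thus differed between these groups about as often as other genes. Somewhat more of them lay apart, 39.3% against 31.2%, the excess being among those lower in old control. What part their higher level has in this was not tested.

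Around the start codon, Eif5, which makes eIF2 hydrolyse its GTP, was at 241, 415 and 448 CPM in old controls and 762, 680 and 861 in young controls. The groups lay apart, and the log2 change of -1.06 (SE 0.36, edgeR adjusted p = 0.0757) did not pass. Eif5b, the GTPase of subunit joining, was at 860, 786 and 755 CPM in old controls and 2788, 1431 and 1107 in young controls. Young control 1 stood far above the rest, and the log2 change was -1.15 (SE 0.36, edgeR adjusted p = 0.0540). Eif1, which guards against wrong start codons, had a log2 change of 1.15 (edgeR adjusted p = 0.203), from 140, 77.6 and 115 CPM to 75.2, 40.8 and 32.9 in young controls.

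All 5 subunit genes of eIF2B had a log2 change below 0, with a median of -0.43, and none passed. Its most counted member Eif2b5, the catalytic subunit, was at 150, 197 and 268 CPM in old controls and 308, 224 and 321 in young controls, so that the groups overlapped. In eIF2 itself the most counted member, Eif2s2, was at 161, 164 and 158 CPM in old controls and 227, 180 and 187 in young controls. These groups lay apart by a small step of -0.30 on the log2 scale.

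Of the elongation factors, Eef1b2, a subunit of the exchange factor that reloads eEF1A, was at 1432, 1048 and 1186 CPM in old controls and 737, 762 and 592 in young controls. Every old control was above every young control, and the log2 change of 0.81 (SE 0.29, edgeR adjusted p = 0.0912) did not pass. Eef2 was at 2468, 1675 and 1930 CPM in old controls and 1834, 1520 and 1720 in young controls. These groups overlapped, at a log2 change of 0.26, and Eef2 had an SD of log2 CPM over 12 libraries of 0.24. Eef1a1, the main carrier of aminoacyl transfer RNA, had a log2 change of -0.42. Its processed pseudogene copies can take or lend reads, so its level is uncertain. Among 9 factor genes known for the terminal pyrimidine tract that places mRNAs under mTOR control (Eef1a1, Eef1b2, Eef1d, Eef1g, Eef2, Eif3e, Eif3f, Eif3h and Eif4b), 5 changes were above 0 and 4 below, with a median of 0.26.

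**Figure D3:**
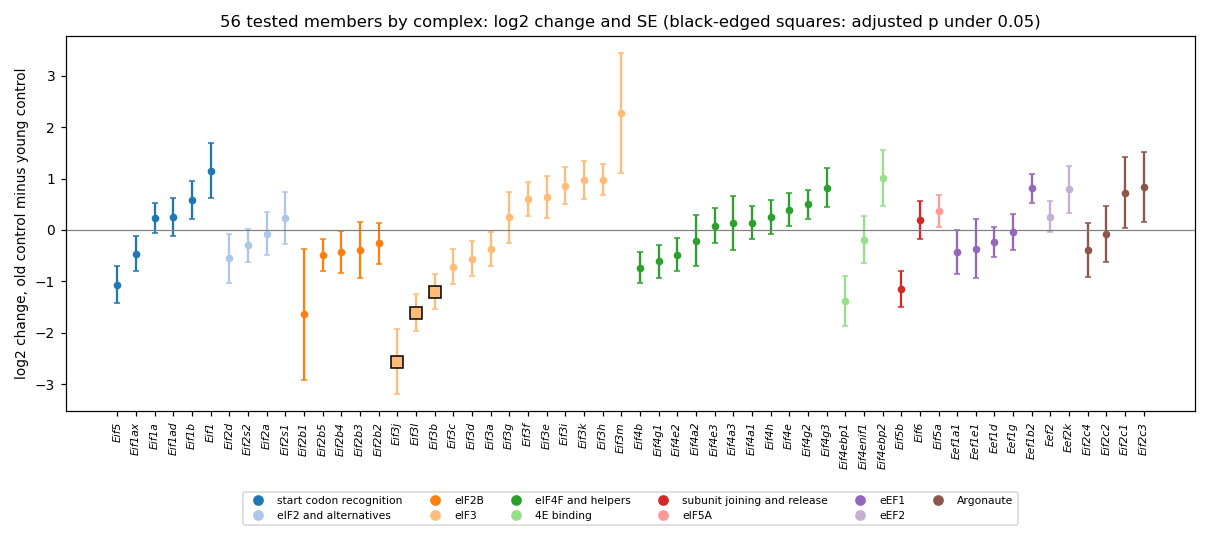
Log2 change from young to old control (vertical axis, positive where old is higher) for the 56 tested factor genes by complex, with bars of 1 SE and squares edged in black for the genes that passed. The 3 passing genes lie in eIF3 at -1.20, -1.61 and -2.56, while genes of the same complex lie on the other side of 0.

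The eIF3 calls rest on few libraries and change with the fit. With the share of mitochondrial rRNA in the fit as a covariate, none of the 10604 genes passed in edgeR, the log2 changes being -1.80 for Eif3l (adjusted p = 0.303), -2.13 for Eif3j (0.450) and -0.99 for Eif3b (0.507). That share was 1.70 to 2.38% in old controls and 4.35 to 8.22% in young controls, without overlap. This fit therefore separates it poorly from age, and its part in the result was not tested. Without old control 1 and young control 3, edgeR called 2 factor genes, beside 4.25% of all genes then tested: Eif3j at -3.55 and Eif5b at -1.45, with Eif3l at -0.94 (adjusted p = 0.146) and Eif3b at -0.85 (0.211). Leaving out old control 2 alone left 0 factor genes called (3.03% of all genes), and leaving out old control 1 or old control 3 left 1 (2.89% and 3.46% of all). DESeq2 called 9 of 56 (16.1%), beside 12.2% of all tested genes, adding Eif5b, Eif5, Eif4ebp1, Eif4b, Eef1b2 and Eif3h.

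Some factors come in paralogs, and their shares of counts do not depend on the library scaling. The most counted gene of the 4E binding group was Eif4enif1, which shuttles the cap-binding protein into the nucleus, with a mean of 49.6 CPM; its old and young controls overlapped, at a log2 change of -0.19. Of the 4E binding proteins, Eif4ebp1 was at 17.0, 17.4 and 36.3 CPM in old controls and 56.2, 51.0 and 74.9 in young controls, with no overlap. Its log2 change of -1.38 (SE 0.48, edgeR adjusted p = 0.0875) did not pass. Eif4ebp2 was at 41.9, 52.8 and 55.3 CPM in old controls and 11.4, 42.5 and 22.9 in young controls, at a log2 change of 1.01. As a share of the Eif4ebp counts, Eif4ebp1 took 28.9, 24.8 and 39.6% in old controls and 83.1, 54.5 and 76.6% in young controls. In old hets it took 51.9, 28.0 and 59.0%, and in young hets 48.7, 74.5 and 63.8%. The share of Eif4ebp1 was thus 40.3 points lower in old than in young control, with the groups apart and the hets of either age between or within them.

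Eif4g1, the scaffold of eIF4F, took 39.95% of the Eif4g counts in old control and 59.2% in young control, a difference of -19.2 points with the groups apart. Eif4g2, which drives initiation without the cap-binding protein, took 47.3% and 33.9%. Its groups lay apart by almost nothing, with 40.3305% in old control 1 and 40.3265% in young control 3. Among the cap-binding genes, Eif4e took 26.4% in old and 20.1% in young control and the repressor Eif4e2 20.02% and 28.4%, and both lay apart. Each of these differences had a two-sided exact permutation p of 0.1, the smallest that 3 against 3 libraries can give, and an adjusted p of 0.545 over the 60 tests of shares, so none passed. Old and young controls lay apart in 6 of 15 shares, among which those of Eif4ebp1 and Eif4ebp2 are 1 measurement and its complement, as Eif4ebp3 had 0 counts. The Eif1 and Eif1a pairs are complements in the same way, and shares within each larger set depend on one another, so the 60 tests are not all separate. The Eif1, Eif1a and Eif4a sets overlapped between these groups. Eif1b took 66.9 to 90.5% of the Eif1 and Eif1b counts in all libraries.

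**Figure D4:**
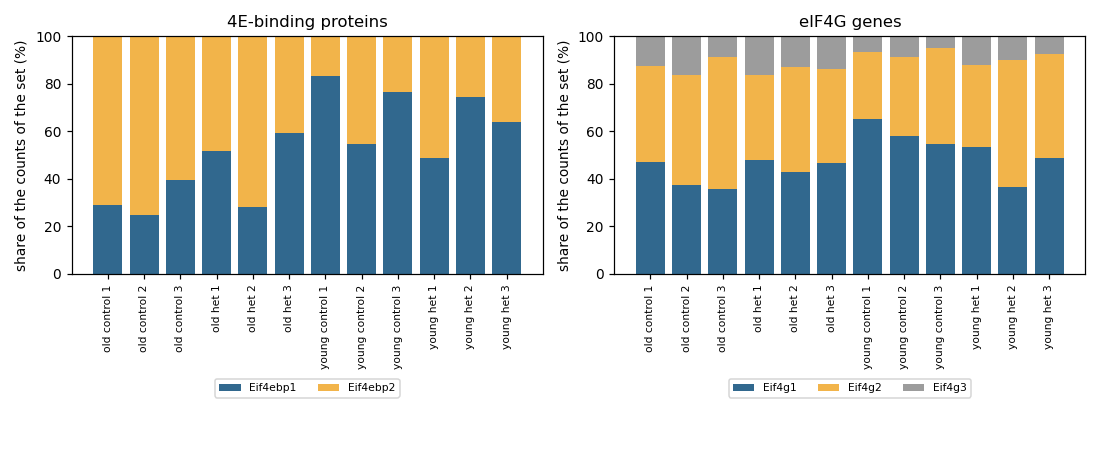
Share of counts (%) taken by each paralog within the Eif4ebp set and the Eif4g set, as stacked bars, 1 bar per library. Eif4ebp1 takes at most 39.6% in the old controls and at least 54.5% in the young controls, and Eif4g1 is lower in each old control than in each young control.

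The comparison of young het with young control asks what a floxed Wt1 allele goes with in young mice. No factor gene passed in edgeR, beside 0.424% of all tested genes (45). Without adjustment 3 of 56 had an edgeR p under 0.05 (5.36%), beside 14% of all, and DESeq2 called Eif3h alone, beside 3.35% of all. The groups lay apart in 10 of 56 (17.9%), beside 16.8% of all tested genes, with 6 higher (9.72% of all) and 4 lower (7.12% of all). Without the Argonaute genes 6 were higher and 3 lower. The median log2 change was -0.04 over the 56 genes, 0.02 over the 52 without the Argonaute genes and 0.08 over all, so that the sign of the factor genes' median turns with that choice.

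Eif3h was at 930, 1366 and 1183 CPM in young hets and 669, 367 and 574 in young controls. Every het was above every control, and the log2 change was 1.11 (SE 0.31, edgeR adjusted p = 0.115, DESeq2 adjusted p = 0.0142). Eef1a1 was at 1083, 376 and 312 CPM in young hets and 850, 1139 and 1524 in young controls. Young het 1 lay among the controls and young hets 2 and 3 below them, and the log2 change of -0.99 (SE 0.43, edgeR adjusted p = 0.307) did not pass. Eif5b had a log2 change of -0.78 (edgeR adjusted p = 0.319), Eif3i one of 0.74 (0.367) and Eif5 one of -0.62 (0.459). Eif5 was at 518, 621 and 359 CPM in young hets, below every young control.

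Other genes whose young groups lay apart were Eif1a, Eif1b, Eif2b5, Eif3k and Eif4g2, higher in het, and Eif2c2, Eif4e2 and Eif5a, lower. Eif2b5 was at 378, 404 and 385 CPM in young hets, above every young control. Eif5a, the factor that carries the hypusine residue, was at 115, 131 and 134 CPM in young hets and 215, 153 and 182 in young controls. Eif4g1 took 46.1% of the Eif4g counts in young het, a difference from young control of -13.04 points, again apart at the smallest exact permutation p of 0.1 (adjusted p = 0.545). The share of Eif4e2 among the cap-binding genes was apart too, at 21.5% in young het and 28.4% in young control, with the same exact p. All 3 young hets and young control 3 had 0 Ddx3y counts, and the part of that difference in these values was not tested.

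The comparison of old het with old control asks the same at the old age. No gene of any kind passed in edgeR or in DESeq2 (0% of 10604 in each). limma-voom also called 0 factor genes, and its share of all genes is not given here. Without adjustment 4 of 56 factor genes (7.14%) had an edgeR p under 0.05, beside 3.58% of all tested genes. Hets and controls lay apart in 5 of 56 (8.93%), beside 11.1% of all, with 4 higher (5.15% of all) and 1 lower (5.99% of all). The median log2 change was 0.04 over the factor genes and -0.05 over all. Of the paralog shares, that of Eif1 in the Eif1 and Eif1b counts lay apart, at 22.3% in old het and 30.3% in old control (exact permutation p = 0.1, adjusted p = 0.545).

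Eif3j was at 19.4, 12.8 and 19.04 CPM in old hets and 10.7, 4.95 and 1.77 in old controls. Every het was above every control, at a log2 change of 1.48 (SE 0.62, edgeR adjusted p = 0.999). Eif5a was at 118, 183 and 112 CPM in old hets and 193, 220 and 295 in old controls, the lone member of the 5 that was lower, at -0.77 (SE 0.31, edgeR adjusted p = 0.999). The other 3 apart were Eif2b4 at 0.48, Eif2s1 at 0.59 and Eif2s2 at 0.16, all higher in het. Eif2b5 was at 371, 237 and 342 CPM in old hets, where old het 2 overlapped the controls. All 5 eIF2B genes had a log2 change above 0, from 0.02 for Eif2b2 to 0.66 for Eif2b3. Their median of 0.62 is the value of Eif2b1 (SE 1.25), which had 1, 30 and 5 counts in old hets 1 to 3. Eif5 had one of 0.81 (SE 0.35) and Eif3k one of -0.78 (SE 0.37), both at an edgeR adjusted p of 0.999.

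The old hets were not alike. Replicates 1 and 3, those with the higher mitochondrial rRNA share, were both above the range of the old controls in 15 of 56 factor genes (26.8%), beside 19.5% of all tested genes, and both below it in 13 (23.2%), beside 21.7%. Old het 2 was not above the range with them in 11 of the 15 (19.6% of 56, beside 14.3% of all tested genes). It was not below the range with them in 12 of the 13 (21.4% of 56, beside 15.7%). Old het 2 stood within the range of the old controls in 34 of 56 (60.7%), beside 55.7% of all. Eif5 shows this: old hets 1 and 3 were at 761 and 821 CPM and old het 2 at 355, where old controls ran from 241 to 448. Eif3l did likewise, at 240 and 315 CPM in replicates 1 and 3 and 174 CPM in replicate 2. The 15 higher genes included Eif3a, Eif3b, Eif3c, Eif3j, Eif3l, Eif5 and Eif5b, and the 13 lower ones Eef1b2, Eif1, Eif3f, Eif3i, Eif3k and Eif5a. Of these, Eif3j was above the range in old het 2 as well, and Eif5a was below it there as well. This description was made after the values were seen, and it was not tested.

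No factor gene passed the test of the difference between the het effects at the 2 ages. edgeR called 0 of 56 for old minus young het effect, beside 0.0849% of all tested genes (9). Without adjustment 8 of 56 (14.3%) had a p under 0.05, beside 12.8% of all. The median difference was 0.11 over the 56 genes, -0.03 without the Argonaute genes and -0.18 over all. The smallest p belonged to Eif5 at 1.43 (SE 0.50, edgeR adjusted p = 0.219), Eif3h at -1.18 (0.246), Eif3k at -1.39 (0.254), Eif3i at -1.22 (0.310) and Eif3j at 2.01 (0.319). DESeq2 called Eif5 alone, beside 2.79% of all, and edgeR called Eif3k and Eif5 without old het 2, beside 2.66% of all. Across the 56 genes the young and old het effects had Pearson's r of -0.34, and 23 of 56 had the same sign; these points share their libraries and are not replicates.

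**Figure D5:**
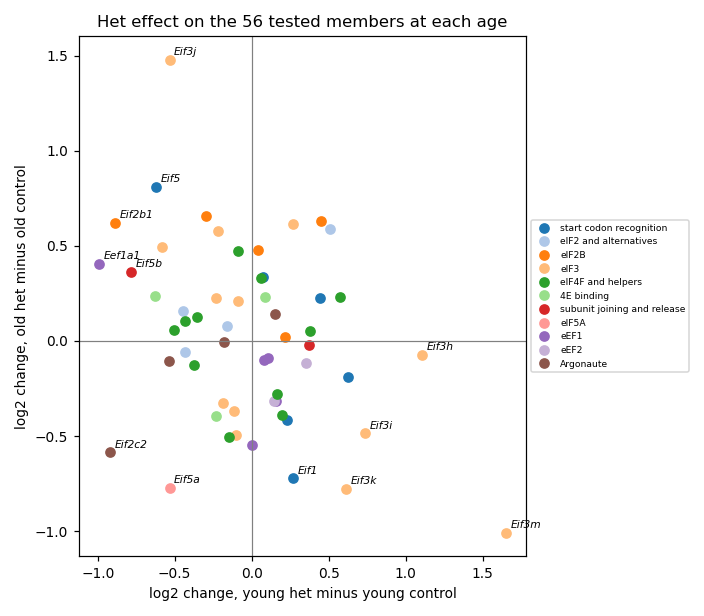
Het effect on each of the 56 tested factor genes in young mice (horizontal axis) and in old mice (vertical axis), both as log2 change from control, with 1 point per gene. Eif3h lies at 1.11 and -0.07, Eif5 at -0.62 and 0.81, and Eif3j at -0.53 and 1.48.

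The comparison of old with young hets asks how the ages differ where a Wt1 allele is floxed. No factor gene passed in edgeR, beside 0.00943% of all tested genes (1), and 2 of 56 (3.57%) had an unadjusted p under 0.05, beside 6.28% of all. The groups lay apart in 6 of 56 factor genes (10.7%), beside 14% of all, with 3 higher (7.08% of all) and 3 lower (6.95% of all); without the Argonaute genes 1 was higher and 3 lower. The median log2 change was -0.05 over the factor genes and 0.01 over all. Eif3l was at 240, 174 and 315 CPM in the old group and 486, 627 and 636 in young hets. As in the controls, every old library was below every young library, at a log2 change of -1.26 (SE 0.36, edgeR adjusted p = 0.584), which did not pass. Eif3b was at 577, 266 and 447 CPM in old hets and 488, 596 and 615 in young hets, and Eif3j at 29.6, 15.8 and 29.5 CPM in young hets, so that these groups overlapped. The other 5 genes apart were Eef1b2, Eif2c1 and Eif2c3, higher in old, and Eef1d and Eif2b5, lower. Eef1a1 and Eef1e1 had log2 changes of 0.97 (edgeR adjusted p = 0.745) and -0.92, and Eif4ebp2 one of 0.85. The share of Eif4g3 in the Eif4g counts lay apart, at 14.4% in old and 9.98% in young het (exact permutation p = 0.1, adjusted p = 0.545).

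The Argonaute genes were low, summing to 91.3 ± 32.9 CPM in young control, 69.6 ± 9.70 in young het, 107 ± 3.11 in old control and 97.0 ± 10.5 in old het. Eif2c1, the most counted with 32.4 CPM on average, was at 54.4, 31.1 and 44.7 CPM in old controls and 23.5, 57.8 and 1.53 in young controls. The groups overlapped, and none of the 4 tested Argonaute genes passed in any comparison.

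A list of 48 other genes around these factors (eIF2 kinases and phosphatases, stress response, mTOR signalling, poly(A) binding, release factors and nascent chain enzymes) had 43 tested members. In old against young control 1 of 43 fell and none rose, beside 4.19% lower and 2.79% higher among all tested genes, so the count is no larger than the background. The median log2 change was 0.17, beside 0.22 over all tested genes. The gene that fell was Metap2, the aminopeptidase that trims the first methionine and binds eIF2. Metap2 was at 711, 951 and 937 CPM in old controls and 3584, 1919 and 1512 in young controls. The groups did not overlap, young control 1 stood highest, and the log2 change was -1.43 (SE 0.36, edgeR adjusted p = 0.0225). Old hets were at 1331, 993 and 1420 CPM and young hets at 1884, 1022 and 1054, and Metap2 passed in no other comparison. Ddx3x, an X-linked helicase that helps initiation, was at a log2 change of 1.01 (edgeR adjusted p = 0.0769).

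In the other comparisons none of the 43 passed. The medians were 0.19 for young het against young control, 0.15 for old het against old control, 0.05 for old against young het and -0.04 for the difference of the het effects. Between the hets Atf4, the stress response factor whose own mRNA is translated when eIF2 is blocked, had a log2 change of -1.39 (edgeR adjusted p = 0.584). Ppp1r15a, which directs a phosphatase to eIF2, had one of -1.72 (edgeR adjusted p = 0.594). In old het against old control Naca, of the nascent chain complex, was at -0.99 (edgeR adjusted p = 0.999).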

How the data were processed

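Per the labels' protocols, a Lexogen 3' mRNA-seq kit was used. The deposited values are raw counts per gene symbol that the authors did not normalize. The submitters' processing notes name STAR 2.4, HTSeq 0.6.1, DESeq2 and mm9, without order or role. The sources used here do not give annotation, strand or molecular identifiers, so overlapping and near-identical genes share reads and floors cover counting error only.

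Genes passed filterByExpr (minimum count 10, minimum total 15) in edgeR 4.0.16 (R 4.3.3), with TMM scaling and a quasi-likelihood fit of all 4 groups. The biological coefficient of variation was 0.535, and p was adjusted over 10604 genes. Levels are CPM against TMM-scaled totals. The SE is the absolute log2 change over the root of F. Groups are called apart when no library of either overlaps the other.

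Members, lists and tests were chosen with earlier results of these data known. Named are genes that passed, the 5 smallest p per comparison, the most counted member per complex and paralog sets; other genes are named from counts or descriptions after their values were seen. No replicates were duplicates (chi-square per degree of freedom 5.01 to 57.8). Alternatives were DESeq2 1.42.0, limma-voom 3.58.1, other scaling, filter and sample sets, covariates, and leaving out each library; the covariate without 2 libraries was added after seeing the data. Steps were tested on simulated data.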

Additional observations from a re-analysis of the deposited data

How the results depend on the processing

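No paired analysis was possible because the labels give the groups no shared replicate numbers. For old against young control, where 3 factor genes passed, 13 of 22 other settings gave a count within 1.5 times of that and 9 did not. The other comparisons had 0, so their counts say little about stability. Of 109 other medians, 94 lay within 1 SD of the value reported. That SD, 0.092 on the log2 scale, is the pooled spread within groups of each library's median deviation over the factor genes. Most reported medians were smaller in size than it, so a median could change sign and still lie within it. For old against young control, the count was 9 in DESeq2, 1 with Xist as a covariate (Eif3j), 0 with mitochondrial rRNA as a covariate, and 0 with that covariate without old control 1 and young control 3. Leaving out 1 library gave 0 to 6: 0 without old control 2, 1 without old control 1 or 3, 5 without young het 1 and 6 without old het 2. The share of all genes called is given above for DESeq2, the mitochondrial rRNA covariate and each old control left out. For the other settings it is not given, so a change in factor gene calls cannot be told from one in all calls. DESeq2 called 1 gene for young het against control and 1 for the difference of het effects, where leaving out 1 library gave 0 to 2.

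Median log2 changes for young het against control were 0.073 in limma-voom, 0.083 with Xist and -0.17 with the covariate and both libraries left out, and from -0.098 to 0.067 with 1 library left out. For old het against control the latter range was -0.056 to 0.097, for old against young control -0.14 to 0.065, and for the difference of effects -0.13 to 0.17. Old against young control was -0.17 without genes that are mitochondrial, small RNA, sex-linked or predicted, and old against young het -0.14 with Xist. The difference of effects was -0.0046 in limma-voom, -0.14 with Xist and -0.10 without old control 1 and young control 3. Without those 2 libraries and with mitochondrial rRNA as a covariate it was 0.24. Single genes were followed only for the 5 smallest p in each comparison (25 log2 changes), of which 3 changed sign in that last setting and none elsewhere: Eef1a1 (0.12) and Eif5 (0.042) in young het against control, and Eif3k (0.25) in the difference of effects. The causes were not tested. Over 22 settings Eif3l passed in 16, Eif3j in 15 and Eif3b in 12, always below 0. Depth limits genes such as Eif3m, with 0 counts in 2 young controls.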
